A study of Homo sapiens with 6 samples.

Results

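The genes described here carry symbols of RAB-named, CHMP, VPS and SNX proteins, together with RASEF, ANKFY1, RUFY1, RUFY2, RUFY3, EEA1 and TSG101, genes of endosome trafficking. They were chosen by symbol, leaving out antisense transcripts, and the symbols were listed with earlier results of these data known. This gave 91 of the 14884 named genes, measured by 94 of the 53617 rows of the array table. The choice holds 34 VPS, 28 SNX, 12 RAB-named and 10 CHMP genes and 7 genes named one by one. Of the 91, 88 are protein-coding, and 3 are not: RAB30-DT, a long non-coding RNA, and the pseudogenes SNX29P1 and SNX29P2. The label of the set speaks of RABs, but apart from RAB6D and the atypical member RASEF the RAB GTPases were not analysed here. The RAB-named genes are mostly effectors and regulators.

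Expression was measured in A549, a human lung adenocarcinoma cell line, 48 hours after transfection of 1 of 3 siRNAs with a lipid reagent. The groups were MYEOV siRNA 1, MYEOV siRNA 2 and a control siRNA named siNC, with 2 arrays each, and no other treatment, genotype or clone is given. MYEOV is a gene first found overexpressed in myeloma, and the design asks what changes in A549 cells when it is lowered. All values are from bulk RNA of 1 cell line, in which fewer cells that express a gene and less RNA per cell cannot be told apart. Of 8 epithelial and A549 marker genes listed, 4 had a named row (EPCAM, KRT8, KRT18 and KRT19) and all 4 passed the filter on dim genes. Of 13 markers of blood, endothelium, fibroblasts and differentiated alveolar cells, 6 had a named row and 0 passed, including the surfactant gene SFTPC.

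Endosomes sort proteins taken up from the cell surface. RAB GTPases and their effectors mark each compartment and bring vesicles together, retromer and the sorting nexins return cargo to the surface or the Golgi, and the ESCRT complexes pinch membrane inward to send cargo to lysosomes. HOPS and CORVET are tethers that fuse endosomes with each other and with lysosomes. The ESCRT-III filaments also cut the last bridge between dividing cells, and the VPS4 ATPases take those filaments apart.

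Levels are given as log2 RMA signal, so a difference of 1 is a 2-fold difference. Levels of different genes were not compared, since their probes differ. A gene was tested if its mean over the 6 arrays reached 5.45, the middle value of the named genes, with limma, and it was called when its Benjamini-Hochberg adjusted p over the 7442 tested genes was under 0.05. Of the 91 members, 80 passed the filter. The 2 control arrays serve in the comparison of each MYEOV siRNA. Nothing in the labels says that the 2 arrays of a group came from separate transfections. The p-values therefore reflect array-to-array spread, which may be technical.

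The targeted gene was lower with both siRNAs. MYEOV stood at 5.34 and 5.19 with MYEOV siRNA 1, at 5.23 and 4.70 with MYEOV siRNA 2, and at 6.20 and 6.50 with the control siRNA. All 4 arrays of the MYEOV siRNAs lay below both control arrays. These 4 arrays were also below the filter of 5.45. MYEOV was tested because the control arrays raised its mean over all arrays to 5.53, just above that filter. In the same fit as the members, the log2 fold change of MYEOV was -1.09 ± 0.18 (SE) with MYEOV siRNA 1 (limma adjusted p = 0.0215). With MYEOV siRNA 2 it was -1.39 ± 0.18 (limma adjusted p = 0.00516). With no filter, the call with MYEOV siRNA 1 was lost (limma adjusted p = 0.135) and that with MYEOV siRNA 2 was kept. The first of these calls was lost when either control array or either array of MYEOV siRNA 1 was left out, with adjusted p from 0.0671 to 0.146.

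With MYEOV siRNA 1, limma called 3 members higher, RASEF, ANKFY1 and CHMP4C, and 3 lower, RUFY2, CHMP1B and VPS4B. These 6 are 7.50% of the 80 tested members, against 4.66% of all tested genes, of which 2.28% were called higher and 2.38% lower. With MYEOV siRNA 2, limma called RASEF, ANKFY1 and CHMP4C higher and RUFY2 and RAB11FIP1 lower, which are 5 members or 6.25%, against 6.83% of all tested genes, 2.59% higher and 4.23% lower. Each share rests on few genes and is near that of all tested genes.

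The members had no common direction. The median log2 fold change of the tested members was 0.00 with MYEOV siRNA 1 and -0.01 with MYEOV siRNA 2, and over all tested genes it was 0.00 in both comparisons. Members also moved by about as much as other genes, with a median absolute log2 fold change of 0.08 against 0.10 over all tested genes for MYEOV siRNA 1 and of 0.10 against 0.10 for MYEOV siRNA 2. At an unadjusted limma p under 0.05 there were 14 members with MYEOV siRNA 1 (17.5%, against 19.2% of all tested genes) and 19 with MYEOV siRNA 2 (23.8%, against 22.2%). Both arrays of MYEOV siRNA 1 lay above both control arrays for 18 members (22.5%, where all tested genes gave 24.4%) and below them for 20 (25%, where all gave 24.4%). For MYEOV siRNA 2 there were 23 above (28.8%, against 25%) and 22 below (27.5%, against 25.6%).

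**Figure D1:**
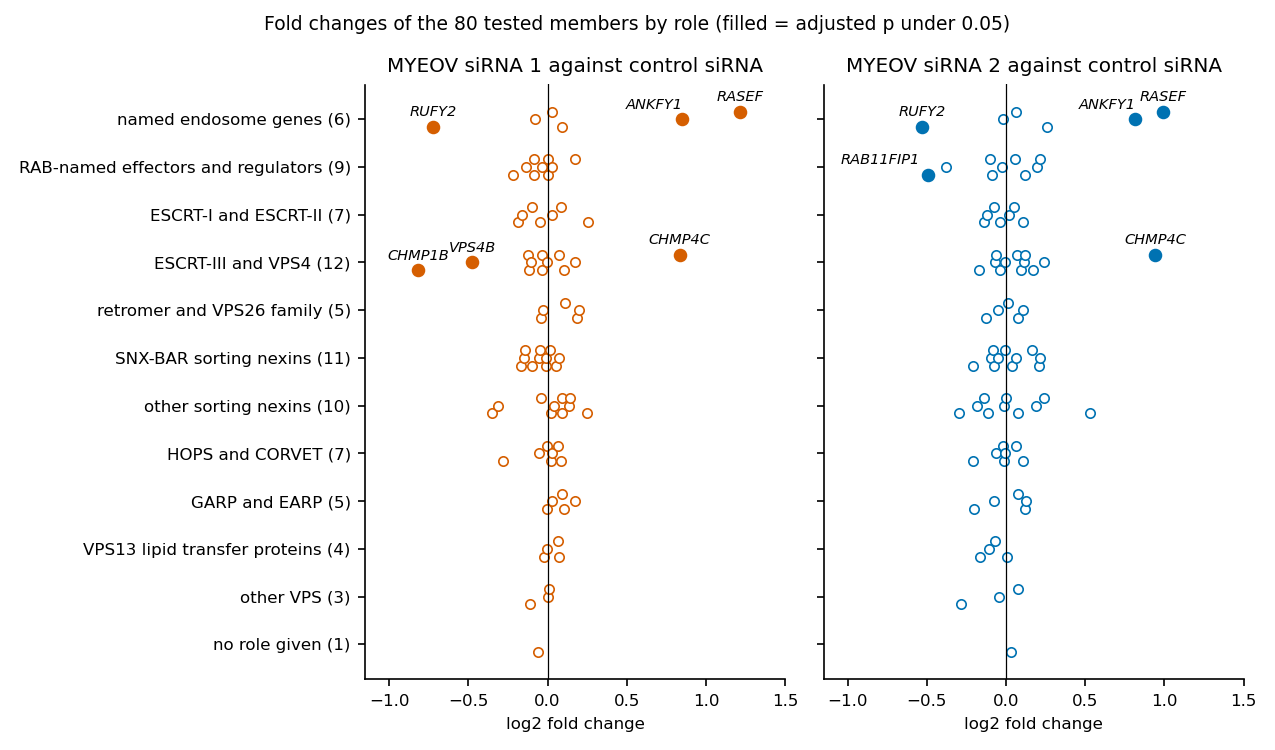
Log2 fold change of each of the 80 tested members against control siRNA, with MYEOV siRNA 1 in the left panel and MYEOV siRNA 2 in the right. Rows are roles with their number of tested genes, each point is a gene, and filled points have a limma adjusted p under 0.05. Most genes sit close to 0, and the named, filled points stand away from them in 3 of the 12 rows.

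Among the 6 endosome genes listed by name, RASEF and ANKFY1 rose and RUFY2 fell in each comparison. That is 3 of 6 genes, where 4.66% of all tested genes were called with MYEOV siRNA 1 and 6.83% with MYEOV siRNA 2. Because these genes were listed with earlier results of these data known, their share cannot be read as an excess over other genes. RASEF, also called RAB45, is an atypical RAB GTPase that joins a RAB domain to EF hands and a coiled coil. Its signal was 8.44 and 8.37 with MYEOV siRNA 1, 8.22 and 8.13 with MYEOV siRNA 2, and 7.31 and 7.06 with the control siRNA. The 4 arrays of the MYEOV siRNAs were all above the control arrays, those of MYEOV siRNA 1 the higher. The log2 fold change was 1.22 ± 0.10 (SE), or 2.32-fold, with MYEOV siRNA 1 (limma adjusted p = 0.00148) and 0.99 ± 0.10, or 1.99-fold, with MYEOV siRNA 2 (adjusted p = 0.00178). MYEOV siRNA 1 minus MYEOV siRNA 2 gave 0.23 on the log2 scale (95% confidence interval 0.00 to 0.45, adjusted p = 0.211), so a difference between the siRNAs did not pass the test.

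ANKFY1, or rabankyrin-5, is a RAB5 effector that binds the lipid PI3P on early endosomes through its FYVE domain. It stood at 9.21 and 9.14 with MYEOV siRNA 1, 9.07 and 9.20 with MYEOV siRNA 2, and 8.36 and 8.28 with the control siRNA. The arrays of the MYEOV siRNAs lay within a narrow band, well above the control arrays, and overlapped each other. It rose by 0.85 ± 0.08 with MYEOV siRNA 1 (1.80-fold, limma adjusted p = 0.00261) and by 0.82 ± 0.08 with MYEOV siRNA 2 (1.76-fold, adjusted p = 0.00162), and the difference between the siRNAs was 0.04 (interval -0.15 to 0.22). The calls of RASEF and ANKFY1 were kept under all 16 alternatives in both comparisons, which include leaving out each array in turn.

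RUFY2, a RUN and FYVE domain protein of endosomes, had 7.69 and 7.65 with MYEOV siRNA 1, 7.74 and 7.99 with MYEOV siRNA 2, and 8.28 and 8.51 with the control siRNA. Every array of the MYEOV siRNAs was below both control arrays, and those of MYEOV siRNA 2 lay between the other groups. The log2 fold change was -0.72 ± 0.11 with MYEOV siRNA 1 (limma adjusted p = 0.0160) and -0.53 ± 0.11 with MYEOV siRNA 2 (adjusted p = 0.0358). The call with MYEOV siRNA 1 was lost without either array of MYEOV siRNA 1 (adjusted p = 0.0880 without replicate 1 and 0.120 without replicate 2) and without control siRNA replicate 2 (0.0885). The call with MYEOV siRNA 2 was lost when any array but MYEOV siRNA 2 replicate 2 was left out, with adjusted p from 0.0577 to 0.139. RefSeq lets the span of RUFY2 overlap that of HNRNPH3, an RNA-binding protein, whose log2 fold changes were 0.00 with MYEOV siRNA 1 and 0.13 with MYEOV siRNA 2, neither called.

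The other RUFY genes were not called. RUFY1, an effector of RAB4 and RAB14, had log2 fold changes of 0.09 with MYEOV siRNA 1 and -0.02 with MYEOV siRNA 2, and RUFY3 had 0.03 and 0.06. EEA1, the long RAB5 effector that tethers early endosomes, stood at 8.40 and 8.46 with MYEOV siRNA 1, at 8.74 and 8.80 with MYEOV siRNA 2 and at 8.47 and 8.55 with the control siRNA. Both arrays of MYEOV siRNA 2 were the highest of the 6. Its log2 fold change against control was 0.26 with MYEOV siRNA 2 (limma adjusted p = 0.0799) and -0.08 with MYEOV siRNA 1 (adjusted p = 0.610), but the siRNAs differed, by -0.34 ± 0.07 for MYEOV siRNA 1 minus MYEOV siRNA 2 (adjusted p = 0.0290).

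**Figure D2:**
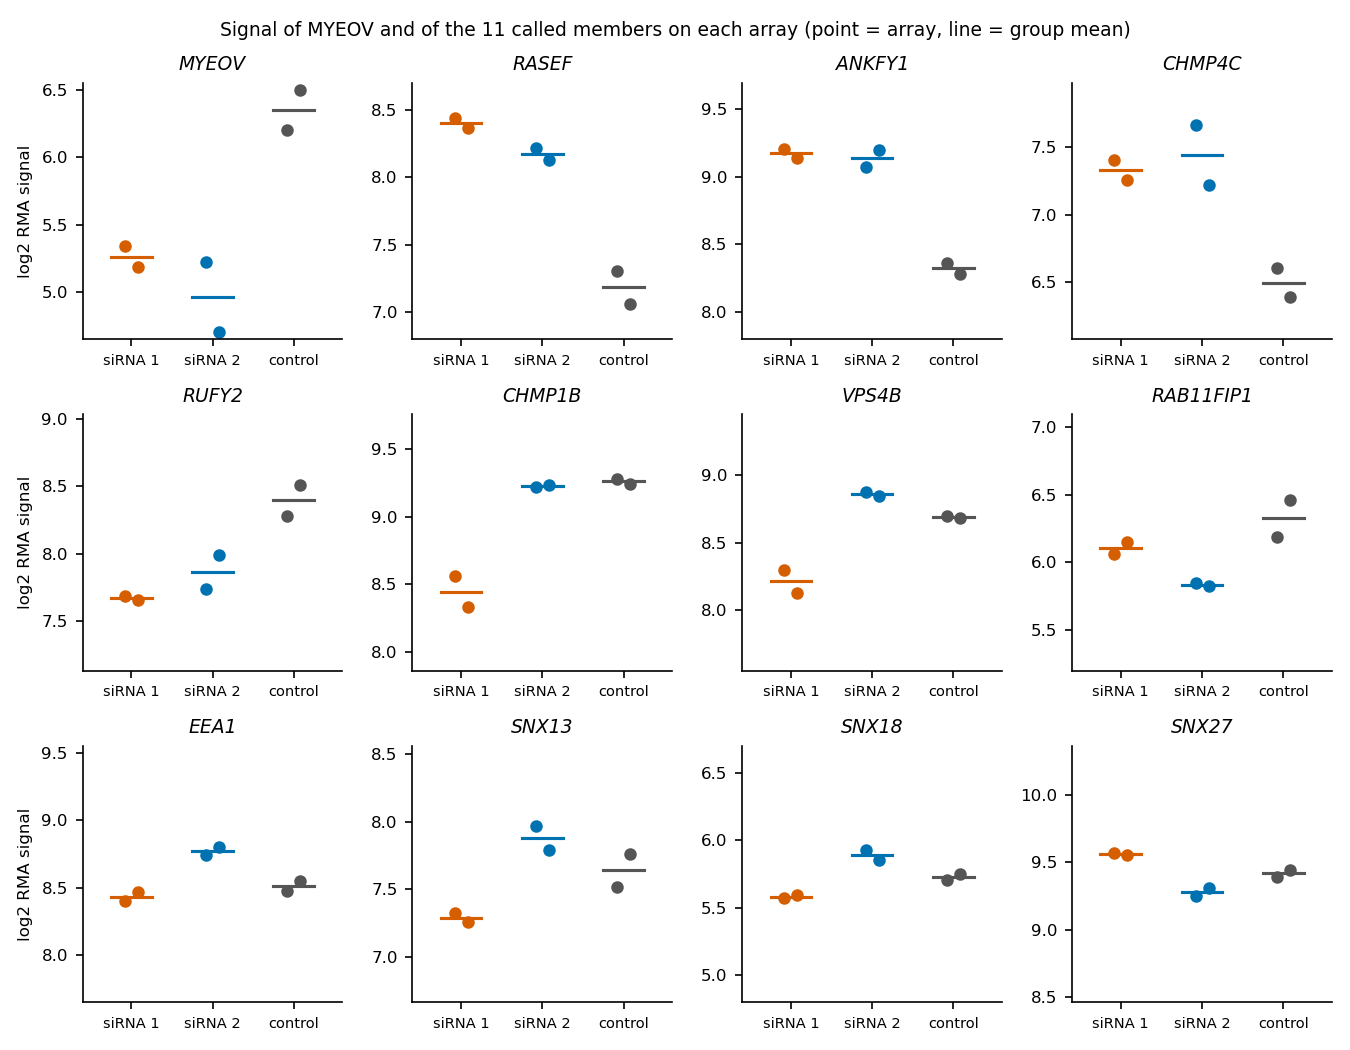
Log2 RMA signal of MYEOV and of the 11 members called in at least 1 of the 3 comparisons, with a point for each array and a line for each group's mean. Each panel spans the same height on the log2 scale, with MYEOV siRNA 1, MYEOV siRNA 2 and control siRNA from left to right. RASEF, ANKFY1 and CHMP4C are higher and RUFY2 lower in each of the 4 MYEOV siRNA arrays than in either control array, whereas CHMP1B and VPS4B are low in the 2 arrays of MYEOV siRNA 1.

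The promoters of these 3 endosome genes are shown because RASEF, ANKFY1 and RUFY2 changed with each siRNA. They run from 250 bases before to 50 after a transcript start in RefSeq (GRCh38.p14, first start listed, minus strand for all 3), at chr9:83063093-83063392, chr17:4263930-4264229 and chr10:68407228-68407527, and are written 5′ to 3′ along the gene. For RASEF this start lies inside the span that RefSeq gives the gene, which reaches upstream to base 83219224. The window at that upstream end was not searched. Capitals mark matches on either strand to any of 9 motifs searched by their letters: the GC box of SP factors (GGGCGG), the E-box of TFEB and MYC (CACGTG), the CCAAT box (CCAAT), the ETS site (CCGGAAGT), the CRE (TGACGTCA), the AP-1 site (TGANTCA), the TEAD site (GGAATG), the TATA box (TATAAA) and the NRF1 site (GCGC, any base, TGCGC).
RASEF: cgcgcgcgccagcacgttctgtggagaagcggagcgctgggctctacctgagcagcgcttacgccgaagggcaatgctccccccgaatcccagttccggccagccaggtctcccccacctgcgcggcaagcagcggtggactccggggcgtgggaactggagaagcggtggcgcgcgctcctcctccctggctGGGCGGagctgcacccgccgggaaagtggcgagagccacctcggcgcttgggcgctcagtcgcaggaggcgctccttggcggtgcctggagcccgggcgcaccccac
ANKFY1: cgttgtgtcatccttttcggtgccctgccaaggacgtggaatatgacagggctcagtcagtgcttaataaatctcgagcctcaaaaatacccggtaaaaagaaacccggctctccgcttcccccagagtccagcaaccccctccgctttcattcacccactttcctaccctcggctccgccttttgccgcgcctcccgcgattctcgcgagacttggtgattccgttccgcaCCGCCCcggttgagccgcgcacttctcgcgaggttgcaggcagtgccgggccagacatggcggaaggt
RUFY2: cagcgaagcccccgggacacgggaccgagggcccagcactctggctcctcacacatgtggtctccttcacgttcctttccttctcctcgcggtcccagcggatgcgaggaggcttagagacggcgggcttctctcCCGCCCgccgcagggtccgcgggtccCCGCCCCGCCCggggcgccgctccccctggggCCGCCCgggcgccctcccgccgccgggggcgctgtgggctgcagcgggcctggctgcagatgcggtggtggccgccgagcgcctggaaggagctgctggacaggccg
RASEF had 1 GC box, from base -57 to -52 of the start, and ANKFY1 had 1, from -18 to -13. RUFY2 had 4, of which the pair from -89 to -84 and from -84 to -79 share a base. None of the other 8 motifs matched in these 3 windows. The GC box was found in 76.1% of the 67 member promoters in the RefSeq table, in 72.6% of the 5923 promoters of tested genes and in 44.6% of all 27305. The E-box, to which the lysosome factor TFEB binds, was in 10.4% of member promoters and in 10.5% of those of tested genes. GC content was 72.3% for RASEF, 59.3% for ANKFY1 and 75.7% for RUFY2, with a median of 67.0% over member promoters and 65.7% over those of tested genes.

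The ESCRT-III subunits and VPS4 ATPases, 12 genes that all passed the filter, gave 1 call higher and 2 lower with MYEOV siRNA 1 and 1 call higher with MYEOV siRNA 2. That is 3 of 12 genes, where 4.66% of all tested genes were called, and 1 of 12, where 6.83% were. These genes too were listed with earlier results of these data known, so their shares cannot be read as an excess over other genes. The median log2 fold change of the 12 genes was -0.03 with MYEOV siRNA 1 and 0.08 with MYEOV siRNA 2. CHMP4C, an ESCRT-III subunit that holds back the final cut between daughter cells, rose with both. Its signal was 7.41 and 7.26 with MYEOV siRNA 1, 7.66 and 7.22 with MYEOV siRNA 2, and 6.60 and 6.39 with the control siRNA. The lowest array of the MYEOV siRNAs was above the highest control array, but the replicates of MYEOV siRNA 2 were apart by more than those of most genes shown. The rise was 0.83 ± 0.15 (SE), or 1.78-fold, with MYEOV siRNA 1 (limma adjusted p = 0.0315) and 0.94 ± 0.15, or 1.92-fold, with MYEOV siRNA 2 (adjusted p = 0.0137). Leaving out any array of MYEOV siRNA 1 or of the control ended the call with MYEOV siRNA 1 (adjusted p from 0.0878 to 0.155), and leaving out control siRNA replicate 1 or 2 ended that with MYEOV siRNA 2 (0.0522 and 0.0832).

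The paralogs of CHMP4C were not called. CHMP4B, the main filament subunit, had log2 fold changes of 0.17 with MYEOV siRNA 1 and 0.12 with MYEOV siRNA 2 (limma adjusted p = 0.210 and 0.347), and CHMP4A had -0.03 and -0.07 (adjusted p = 0.881 and 0.737). The differences between these paralogs were not tested.

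CHMP1B and VPS4B fell with MYEOV siRNA 1. CHMP1B, an ESCRT-III subunit that binds the microtubule-severing enzyme spastin, was at 8.56 and 8.33 with MYEOV siRNA 1, 9.22 and 9.24 with MYEOV siRNA 2, and 9.28 and 9.24 with the control siRNA. The 2 arrays of MYEOV siRNA 1 were well below the other 4, which lay close together. The log2 fold change was -0.82 ± 0.09 with MYEOV siRNA 1 (limma adjusted p = 0.00459) and -0.04 ± 0.09 with MYEOV siRNA 2 (interval -0.24 to 0.17, adjusted p = 0.864), and MYEOV siRNA 1 minus MYEOV siRNA 2 was -0.78 ± 0.09 (adjusted p = 0.00266). RefSeq places CHMP1B inside the span of GNAL, a G protein gene that was not analysed here. Its paralog CHMP1A had 0.07 with MYEOV siRNA 1 and 0.11 with MYEOV siRNA 2, neither called.

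VPS4B, an ATPase that removes ESCRT-III from membranes, stood at 8.30 and 8.13 with MYEOV siRNA 1, 8.87 and 8.85 with MYEOV siRNA 2, and 8.70 and 8.68 with the control siRNA. The arrays of MYEOV siRNA 1 were the lowest and those of MYEOV siRNA 2 the highest, with no overlap between groups. VPS4B fell by 0.48 on the log2 scale with MYEOV siRNA 1 (-0.48 ± 0.08, limma adjusted p = 0.0232), had 0.17 ± 0.08 with MYEOV siRNA 2 (adjusted p = 0.267), and differed between the siRNAs by -0.65 ± 0.08 (adjusted p = 0.00360). The fall was not called without MYEOV siRNA 1 replicate 2 (adjusted p = 0.141), control siRNA replicate 1 (0.110) or control siRNA replicate 2 (0.0999). Its paralog VPS4A had -0.12 with MYEOV siRNA 1 and -0.17 with MYEOV siRNA 2 (adjusted p = 0.564 and 0.362).

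Of the other ESCRT-III subunits, CHMP2A, CHMP2B, CHMP5, CHMP6 and CHMP7 had log2 fold changes between -0.12 and 0.24 in the 2 comparisons, and 0 of the 5 were called. The largest of these was CHMP6, at 0.24 with MYEOV siRNA 2 (limma adjusted p = 0.160). The 7 tested genes of ESCRT-I and ESCRT-II, which gather cargo before ESCRT-III acts, gave 0 calls in any comparison. Where 4.66%, 6.83% and 9.15% of all tested genes were called, 0 of 7 does not set them apart. TSG101, the ubiquitin-binding core of ESCRT-I, had 0.09 with MYEOV siRNA 1 and 0.02 with MYEOV siRNA 2. The highest mean of both fold changes in this group was that of the ESCRT-I subunit VPS37C (0.26 and -0.04) and the lowest that of the ESCRT-II subunit VPS36 (-0.19 and -0.12).

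**Figure D3:**
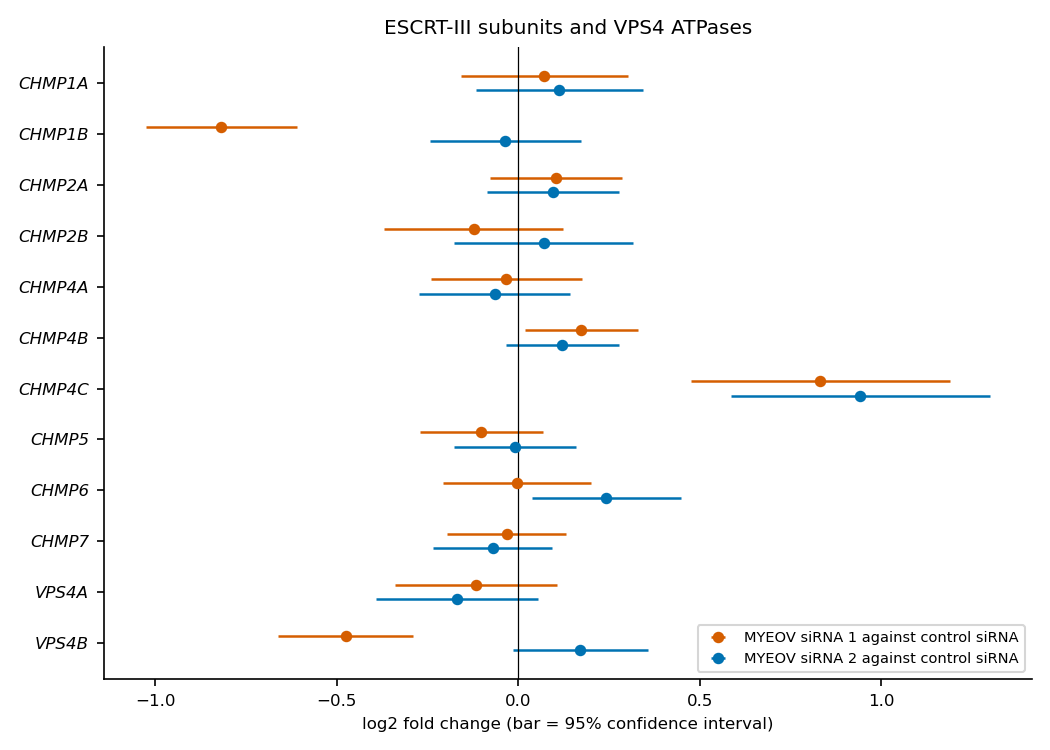
Log2 fold change of the 12 ESCRT-III and VPS4 genes against control siRNA, with MYEOV siRNA 1 above MYEOV siRNA 2 for each gene and bars giving limma's 95% confidence interval. CHMP4C lies right of 0 with both siRNAs (0.83 and 0.94), CHMP1B and VPS4B lie left of 0 with MYEOV siRNA 1 (-0.82 and -0.48), and the intervals of most others cross 0.

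The promoters of CHMP1B and VPS4B are shown with the same motifs in capitals, since these genes changed with MYEOV siRNA 1 and differed between the siRNAs. They lie at chr18:11851163-11851462 on the plus strand and chr18:63422427-63422726 on the minus strand (RefSeq, GRCh38.p14).
CHMP1B: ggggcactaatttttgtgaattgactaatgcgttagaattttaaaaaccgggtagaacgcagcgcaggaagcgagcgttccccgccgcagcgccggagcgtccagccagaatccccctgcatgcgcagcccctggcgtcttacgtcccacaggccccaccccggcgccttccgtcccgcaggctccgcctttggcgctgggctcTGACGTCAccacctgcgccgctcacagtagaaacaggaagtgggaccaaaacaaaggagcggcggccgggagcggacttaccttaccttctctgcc
VPS4B: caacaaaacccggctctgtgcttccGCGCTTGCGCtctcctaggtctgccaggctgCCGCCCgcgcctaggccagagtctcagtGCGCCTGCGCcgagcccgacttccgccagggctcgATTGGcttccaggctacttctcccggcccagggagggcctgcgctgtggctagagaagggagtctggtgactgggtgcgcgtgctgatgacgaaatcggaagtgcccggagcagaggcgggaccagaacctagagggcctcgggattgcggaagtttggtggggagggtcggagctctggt
CHMP1B had 1 CRE, from base -46 to -39, a motif found in 7.46% of member promoters and 3.51% of promoters of tested genes, and no match to the other 8 motifs. VPS4B had 2 NRF1 sites, from -225 to -216 and from -166 to -157, a GC box from -194 to -189 and a CCAAT box from -131 to -127. NRF1 sites were in 16.4% of member promoters and 12.5% of those of tested genes. CHMP1B and VPS4B thus shared none of the 9 motifs.

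Among the RAB-named genes, leaving out RAB6D and RAB30-DT, 10 were effectors or regulators, of which 9 passed the filter. Of these, 0 were called with MYEOV siRNA 1 and 1, RAB11FIP1, with MYEOV siRNA 2, where 6.83% of all tested genes were called. RAB11FIP1 is an effector of RAB11 and RAB4 in recycling to the cell surface. Its signal was 6.06 and 6.15 with MYEOV siRNA 1, 5.84 and 5.83 with MYEOV siRNA 2, and 6.19 and 6.46 with the control siRNA. The arrays of MYEOV siRNA 2 were lowest, and those of MYEOV siRNA 1 lay just below the lower control array. The log2 fold change was -0.49 ± 0.10 with MYEOV siRNA 2 (limma adjusted p = 0.0344) and -0.22 ± 0.10 with MYEOV siRNA 1 (adjusted p = 0.297), and the difference between the siRNAs, 0.27, did not pass the test (interval 0.04 to 0.51, adjusted p = 0.155). The call was lost when any array but control siRNA replicate 1 was left out, with adjusted p from 0.0634 to 0.138.

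The related RAB11 effector RAB11FIP5 was next, at 5.89 and 5.79 with MYEOV siRNA 1, 5.65 and 5.45 with MYEOV siRNA 2 and 5.86 and 5.99 with the control siRNA, a log2 fold change of -0.38 with MYEOV siRNA 2 that was not called (limma adjusted p = 0.0609). RAB11FIP2, RAB11FIP3 and RAB11FIP4 had fold changes between -0.10 and 0.17 on the log2 scale in both comparisons. RAB3GAP1 and RAB3GAP2, which together form a complex that acts on RAB3 and RAB18, had 0.02 and -0.09 with MYEOV siRNA 1 and -0.09 and -0.03 with MYEOV siRNA 2. The highest mean of both fold changes in this group was that of RAB5IF (0.00 and 0.20, limma adjusted p = 0.995 and 0.219).

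Retromer, the coat that retrieves cargo from endosomes, gave 0 calls in any comparison. All tested genes gave 4.66% with MYEOV siRNA 1, 6.83% with MYEOV siRNA 2 and 9.15% between the siRNAs. With so few genes, 0 calls do not set retromer apart from other genes. Of the core subunits, VPS35 had log2 fold changes of -0.04 with MYEOV siRNA 1 and -0.13 with MYEOV siRNA 2, VPS29 had 0.19 and 0.11, VPS26A 0.20 and 0.08, and VPS26B -0.03 and -0.05. VPS35L, of the related retriever complex, had 0.11 and 0.01. Its partner VPS26C was below the filter and was not tested, with 4.97 and 4.81 with MYEOV siRNA 1, 5.58 and 5.48 with MYEOV siRNA 2, and 5.47 and 5.30 with the control siRNA. Both arrays of MYEOV siRNA 1 were below the other 4 for VPS26C.

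Of the 21 tested sorting nexins, 0 were called by limma against control with either siRNA, while 3 differed between the siRNAs. Of all tested genes, 4.66% were called with MYEOV siRNA 1, 6.83% with MYEOV siRNA 2 and 9.15% between the siRNAs. With so few nexins, these counts do not set them apart from other genes. With the replicate number as a block, SNX16 was called as well. Between the siRNAs, SNX12 (0.28, limma adjusted p = 0.0514) and SNX2 (-0.35, adjusted p = 0.0521) fell just short of the threshold. They were called under 5 and 7 of 16 alternatives. Of the 3 called, SNX18 lost its call under 9 of 15 alternatives and SNX27 under 9 of 16. SNX13, a sorting nexin with an RGS-like domain, had 7.32 and 7.25 with MYEOV siRNA 1, 7.97 and 7.79 with MYEOV siRNA 2, and 7.52 and 7.76 with the control siRNA. The controls lay between the siRNAs. MYEOV siRNA 1 minus MYEOV siRNA 2 was -0.59 ± 0.10 (limma adjusted p = 0.0159), made up of -0.35 and 0.24 against control (adjusted p = 0.119 and 0.234).

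SNX18, which bends membranes through its BAR domain, had 5.57 and 5.59 with MYEOV siRNA 1, 5.93 and 5.86 with MYEOV siRNA 2, and 5.70 and 5.75 with the control siRNA, and SNX27, the PDZ-domain adaptor that links cargo to retromer, ran the other way. SNX27 had 9.57 and 9.55 with MYEOV siRNA 1, 9.25 and 9.31 with MYEOV siRNA 2, and 9.39 and 9.45 with the control siRNA. In both genes the control arrays fell between those of the siRNAs without overlap. The difference between the siRNAs was -0.31 ± 0.07 for SNX18 (limma adjusted p = 0.0346) and 0.28 ± 0.07 for SNX27 (adjusted p = 0.0455).

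The 11 tested SNX-BAR nexins had medians of -0.05 with MYEOV siRNA 1 and -0.01 with MYEOV siRNA 2. By the mean of both fold changes SNX4, of recycling endosomes, was highest (-0.01 with MYEOV siRNA 1 and 0.22 with MYEOV siRNA 2) and SNX8 lowest (-0.17 and -0.21), none of these called. Among the 10 other tested nexins, SNX16 had 6.11 and 5.78 with MYEOV siRNA 1, 6.45 and 6.32 with MYEOV siRNA 2, and 5.99 and 5.72 with the control siRNA. Its value of 0.53 with MYEOV siRNA 2 was the largest of any member not called in that comparison (limma adjusted p = 0.0628). Replicate 1 was above replicate 2 in all 3 groups, and with a replicate block SNX16 was called with MYEOV siRNA 2 (adjusted p = 0.0116) and between the siRNAs (-0.44, adjusted p = 0.0171, against 0.0942 without the block). A trend and robust prior also called it with MYEOV siRNA 2 (adjusted p = 0.0463). SNX24 was lowest, with -0.31 and -0.30 (adjusted p = 0.172 and 0.171).

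Tethers and lipid transfer proteins gave 0 calls in any comparison, where 4.66%, 6.83% and 9.15% of all tested genes were called. These groups are too small for 0 calls to set them apart. The HOPS and CORVET list had 7 tested genes, including VPS33B, whose place in these complexes was not examined. Lowest in the list on the log2 scale was the SM protein VPS33A, at -0.28 with MYEOV siRNA 1 and -0.21 with MYEOV siRNA 2 (limma adjusted p = 0.0901 and 0.159). VPS18 had the highest mean (0.08 and 0.11). The 5 GARP and EARP genes, tethers of vesicles that return from endosomes, ranged by their mean from VPS53 (0.00 and -0.20) to the EARP subunit VPS50 (0.09 and 0.12). The 4 VPS13 genes, which carry lipids between membranes, ranged from VPS13A (-0.03 and -0.17) to VPS13D (0.06 and 0.00). Of the 3 remaining VPS genes, VPS72, which belongs to chromatin remodelling complexes in human cells and not to trafficking, was lowest (-0.11 and -0.29) and VPS45, an SM protein of endosomes, highest (0.00 and 0.08). RAB30-DT had -0.06 and 0.03. All these pairs give MYEOV siRNA 1 first.

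The 3 members with more than 1 row were VPS37B, VPS51 and VPS52. Their rows were not called in any comparison, and for VPS51, at 0.11 and -0.14 with MYEOV siRNA 1 and 0.07 and -0.18 with MYEOV siRNA 2, they pointed in different directions. The 11 members below the filter were VPS37D, RAB6D, SNX20, SNX21, SNX22, SNX31, SNX32, SNX29P1, SNX29P2, RAB3IP and VPS26C, with means over all arrays from 2.18 to 5.42. The pseudogenes share sequence with SNX29, so their signals are uncertain.

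The precision allows a bound on the members that were not called, as far as the spread between arrays goes. That spread may be technical, and the intervals are not adjusted for the number of genes tested. The 95% interval of a member reached a median of 0.19 on the log2 scale to each side of its fold change, with a range from 0.15 to 0.38. For MYEOV siRNA 1 the interval of 71 of the 74 members not called lay within 0.5 of 0, and for MYEOV siRNA 2 that of 72 of 75. Changes that fall inside these intervals could not be told from none with 2 arrays per group.

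Set against each other, the siRNAs differed in 6 of the 80 tested members: CHMP1B, VPS4B, EEA1, SNX13 and SNX18 were lower and SNX27 higher with MYEOV siRNA 1 than with MYEOV siRNA 2. That is 7.50% of the members, against 9.15% of all tested genes, of which 5.37% were higher and 3.78% lower (limma adjusted p under 0.05). Without overlap, MYEOV siRNA 1 lay above MYEOV siRNA 2 for 24 members, where 27.1% of all tested genes did, and below it for 21, where 27.5% did. The differences of RASEF, ANKFY1, CHMP4C and RUFY2 were not called, at 0.23, 0.04, -0.11 and -0.19 on the log2 scale, although the arrays of the siRNAs did not overlap for RASEF and RUFY2. For these 4 genes the intervals of the difference were 0.00 to 0.45, -0.15 to 0.22, -0.47 to 0.25 and -0.45 to 0.06. A difference of up to about these bounds could therefore not be told from none. When only MYEOV siRNA 1 or MYEOV siRNA 2 arrays were left out in turn, the count of members called was 2 or 3, with CHMP1B and VPS4B called each time. The differences of the other 4 genes were lost without at least 3 single arrays each, at adjusted p from 0.0971 to 0.154 for EEA1, 0.0707 to 0.0993 for SNX13, 0.0502 to 0.174 for SNX18 and 0.0609 to 0.208 for SNX27.

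Further genes of endosome trafficking were taken from 5 lists of 160 genes outside the set, of which 103 had a named row and 97 were tested. With MYEOV siRNA 1, 1 was called higher and 2 lower, and with MYEOV siRNA 2, 4 were higher and 4 lower, with medians of 0.04 and 0.02 over the 97 genes. These are 3.09% of the 97 with MYEOV siRNA 1, against 4.66% of all tested genes, and 8.25% with MYEOV siRNA 2, against 6.83%, so both shares are near those of all genes. Among ESCRT partners, the deubiquitinase STAMBP, which acts on cargo at ESCRT-III, had 5.13 and 5.31 with MYEOV siRNA 1, 6.21 and 6.31 with MYEOV siRNA 2, and 6.32 and 6.35 with the control siRNA. It was low in both arrays of MYEOV siRNA 1, as CHMP1B and VPS4B were, with -1.12 ± 0.08 against control (limma adjusted p = 0.00144) and -0.08 ± 0.08 with MYEOV siRNA 2 (adjusted p = 0.674). The difference between the siRNAs was -1.04 (adjusted p = 0.000714). Of the 15 tested ESCRT partners, STAMBP was the only 1 called with MYEOV siRNA 1. With MYEOV siRNA 2, TOM1L1 was called higher (0.31, limma adjusted p = 0.0392) and SPAST, the gene of spastin, lower (-0.45, adjusted p = 0.0169). SPAST had 0.08 with MYEOV siRNA 1 and ran opposite to STAMBP between the siRNAs (0.52, adjusted p = 0.00730).

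EHD3, an ATPase of recycling endosomes, was called higher in each comparison. It stood at 7.02 and 6.97 with MYEOV siRNA 1, 7.02 and 7.14 with MYEOV siRNA 2, and 6.53 and 6.56 with the control siRNA, with no overlap between the MYEOV siRNAs and the control. The rise was 0.45 ± 0.07 with MYEOV siRNA 1 (limma adjusted p = 0.0215) and 0.54 ± 0.07 with MYEOV siRNA 2 (adjusted p = 0.00666). The call with MYEOV siRNA 1 was lost without either of its own arrays or either control array (adjusted p from 0.0920 to 0.124), and that with MYEOV siRNA 2 without MYEOV siRNA 2 replicate 2 (0.0505). Of the 15 tested recycling and exocyst genes, EHD3 was the only 1 called with MYEOV siRNA 1. With MYEOV siRNA 2, EXOC1 (-0.47, limma adjusted p = 0.0131) and ARF6 (-0.32, adjusted p = 0.0381) were called lower. Of all tested genes, 4.66% and 6.83% were called.

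STX6 and RILP were called with MYEOV siRNA 2. STX6 had 8.07 and 7.88 with MYEOV siRNA 1, 8.11 and 8.19 with MYEOV siRNA 2, and 7.63 and 7.56 with the control siRNA, which was lowest. The SNARE STX6, which fuses vesicles between endosomes and the Golgi, rose by 0.56 ± 0.09 (limma adjusted p = 0.0123), with 0.38 and an adjusted p of 0.0576 for MYEOV siRNA 1. RILP, the RAB7 effector that links late endosomes to dynein, had 6.35 and 6.50 with MYEOV siRNA 1, 5.80 and 6.07 with MYEOV siRNA 2, and 6.73 and 6.42 with the control siRNA. The arrays of MYEOV siRNA 2 were the lowest. It fell by 0.64 with MYEOV siRNA 2 (-0.64 ± 0.13, adjusted p = 0.0360) and had -0.15 with MYEOV siRNA 1. The call of STX6 was lost without MYEOV siRNA 2 replicate 2 or either control array (adjusted p from 0.0564 to 0.0755), and that of RILP when any array but control siRNA replicate 2 was left out (0.0505 to 0.147). The 16 tested genes of the WASH, retriever and COMMD list, which act in cargo sorting at endosomes, gave 0 calls with either siRNA. Of all tested genes, 4.66% and 6.83% were called, so 0 of 16 does not set this list apart.

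**Figure D4:**
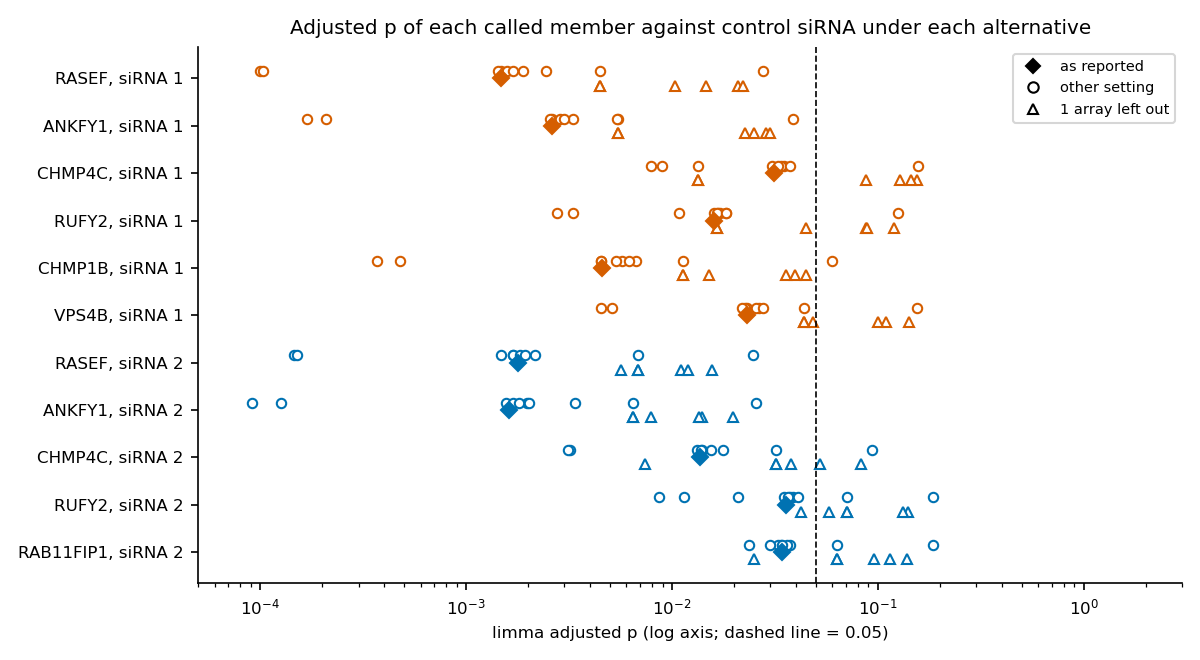
Limma adjusted p, on a log axis, of each member called against control siRNA, as reported (diamonds), under other settings (circles) and with 1 array left out (triangles), for MYEOV siRNA 1 in the upper 6 rows and MYEOV siRNA 2 in the lower 5. All points of RASEF and ANKFY1 lie left of the dashed line at 0.05, CHMP1B crosses it with 1 setting (0.0596), and the other genes cross it under several.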

How the data were processed

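Total RNA of 6 A549 samples was hybridised as labelled cDNA to Affymetrix whole-transcript arrays. The authors deposited log2 values, and the submitters' processing notes name RMA without a version. RMA corrects background, equalises the arrays and summarises probes, and it understates changes of dim genes. Array medians were 4.08 to 4.10. Scanner files were not used here.

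The platform annotation named 16098 rows with 1 symbol and 37519 with none. For a gene with several rows, that with the highest mean was used. The model had the 3 groups and no covariate and was run in R 4.3.3 with lmFit and eBayes of limma 3.58.1, with 3 residual and 4.09 prior degrees of freedom. With 2 arrays a side, exact permutation p-values stop at 0.333, and limma's prior on the spread decides the calls. The steps were also run on simulated data, with independent arrays and spreads drawn from limma's own fitted prior. Such data follow the model by design, so they cannot show whether it suits these arrays. Figures were drawn with matplotlib 3.10.9.

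The members, lists and tests were chosen with earlier results of these data known. Named genes were MYEOV, RASEF, ANKFY1, CHMP4C, RUFY2, every called member, the highest and lowest of each role by mean fold change, and, per pathway list, genes called with both siRNAs or the largest call. Other members named, and SPAST, TOM1L1, EXOC1 and ARF6, were chosen after their values were seen.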

Additional observations from a re-analysis of the deposited data

Results flagged for a closer look

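For 6 members the effects of the siRNAs against the same control arrays differed by the test of the difference itself (limma adjusted p under 0.05). MYEOV siRNA 1 minus MYEOV siRNA 2 was -0.78 on the log2 scale for CHMP1B, -0.65 for VPS4B, -0.59 for SNX13, -0.34 for EEA1, -0.31 for SNX18 and 0.28 for SNX27. For VPS4B, SNX13, EEA1, SNX18 and SNX27 the arrays of the siRNAs lay on opposite sides of both control arrays. No cause of these differences was tested.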

How the results depend on the processing

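The counts of called members and the fold changes of 86 genes (MYEOV, the 80 tested members, STAMBP, EHD3, STX6, RILP and HNRNPH3) were recomputed under 16 alternatives: 2 other filters, every row tested, rows averaged, a further quantile or median scaling, only the arrays of both groups compared, a replicate block, a trend and robust prior, array weights and each array left out. For 34 of the genes there were 15, since they were below the 75th percentile filter. Of 4026 recomputed values, 3916 kept their side of the threshold, 81 lost a call and 29 gained one. A sign changed for 156 values, none called either as reported or under that alternative. With no filter, 2 members were called with each siRNA against control and 2 between the siRNAs. With only the groups compared, 3 were called with MYEOV siRNA 2. The 75th percentile filter and the trend and robust prior each gave 10 between the siRNAs. With 1 array left out, the count ran from 3 to 6 for MYEOV siRNA 1, from 2 to 4 for MYEOV siRNA 2 and from 2 to 5 between the siRNAs. The replicate block gave 6, 6 and 8 in that order, adding SNX16 with MYEOV siRNA 2 and SNX12 and SNX16 between the siRNAs; deviations of same-numbered arrays correlated at 0.25, 0.27 and 0.20 across genes, but no label says what the numbers share. The cause of the other changes was not tested.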
